A study of Drosophila melanogaster with 3 samples.

Results

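The Polycomb group genes described here are 10 genes, ph-p, ph-d, Pc, Psc, Su(z)2, E(z), esc, Su(z)12, Sfmbt and pho, out of 13945 protein-coding genes on the main chromosome arms of Drosophila melanogaster. They were chosen by name, and each was searched for binding summits of the protein CG12942. A summit, the highest point of a peak, was called a promoter summit when it lay within 500 bp of an annotated transcription start site (TSS) of the gene. Summits in the rest of the gene or within 5 kb of its ends were counted apart. All 10 genes were found in the Ensembl annotation.

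The data are chromatin immunoprecipitation with sequencing (ChIP-seq) of whole embryos aged 0 to 24 h, male and female pooled. The flies were 1 transgenic line that stably expresses CG12942 with green fluorescent protein (GFP) at its C terminus, and the fusion was precipitated with an antibody against GFP, although another label field gives CG12942 as the antibody's name. The 3 biological replicates form 1 group, with 1 biosample per replicate and the same donor line in all, and the chromatin was sheared by sonication. No other genotype, stage or control library was analysed here, so all values describe where in the genome this fusion was found and no value compares conditions. Embryos of that age range mix nearly all embryonic stages and tissues, so the lists average over them. The authors' replicate lists held 30000, 30000 and 27870 peaks, and their optimal list, the peaks that passed a test of reproducibility between replicates (IDR), held 3844. The peaks were ranked within each list by the signal value of the authors' peak caller, with 1 as the strongest. The number of reads is not stated in those lists or labels, so the depth behind a signal value is unknown.

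Polycomb group proteins keep developmental genes such as the Hox genes silent in cells where they should not be active. They work in complexes. Polycomb repressive complex 2 (PRC2) methylates lysine 27 of histone H3, PRC1 binds that mark and compacts chromatin, and the Pho repressive complex (PhoRC) binds DNA at Polycomb response elements, the regulatory sequences that recruit the other complexes in flies. CG12942 is a gene for which the annotation gives no other name.

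The bases below are from the RefSeq Release 6 (dm6) genome and are shown in the direction of transcription of the gene named. The first pair carries the strongest promoter summit found at these genes. It sets the stretch of the ph-p upstream region that holds the summit, chrX:2137236-2137491 (minus strand), beside its counterpart upstream of the tandem copy ph-d, chrX:2123669-2123732 (minus strand). Capitals mark bases that are identical in an alignment of both regions.
ph-p: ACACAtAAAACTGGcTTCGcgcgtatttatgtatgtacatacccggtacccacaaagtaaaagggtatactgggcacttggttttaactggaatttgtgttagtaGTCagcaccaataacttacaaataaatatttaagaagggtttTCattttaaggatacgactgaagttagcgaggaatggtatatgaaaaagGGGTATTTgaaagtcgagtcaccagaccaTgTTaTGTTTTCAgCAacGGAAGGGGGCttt
ph-d: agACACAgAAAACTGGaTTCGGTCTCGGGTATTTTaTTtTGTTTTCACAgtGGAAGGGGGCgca
The next set gives bases at the strongest promoter summits of E(z), Sfmbt, esc and pho, with the searched motifs in capitals and with at most 30 bases of annotated untranslated regions (UTRs) in a run. They are E(z) at chr3L:10638113-10638142, Sfmbt at chr2L:13176853-13176973, esc at chr2L:11829406-11829477 and, further into the gene, at chr2L:11829360-11829389, and pho at chr4:1181760-1181880, all on the minus strand.
E(z): ggctgcgtttctCAACACTacacaaagcag
Sfmbt: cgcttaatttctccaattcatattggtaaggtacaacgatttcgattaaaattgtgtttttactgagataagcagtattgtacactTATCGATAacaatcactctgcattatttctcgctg
esc, upstream: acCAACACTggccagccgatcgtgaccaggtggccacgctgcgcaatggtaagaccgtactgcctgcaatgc
esc, motif 1: atccgtgactggGGTCACACcattgccgcc
pho: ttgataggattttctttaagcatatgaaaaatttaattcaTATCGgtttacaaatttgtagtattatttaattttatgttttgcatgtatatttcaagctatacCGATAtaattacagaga
The last pair shows the strongest optimal summits of Pc and ph-d, genes without a promoter summit in the optimal list, that downstream of Pc at chr3L:21304532-21304608 and that upstream of ph-d at chrX:2123988-2124108, both on the minus strand and both without a searched motif.
Pc: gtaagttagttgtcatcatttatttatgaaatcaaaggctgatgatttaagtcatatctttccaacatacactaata
ph-d: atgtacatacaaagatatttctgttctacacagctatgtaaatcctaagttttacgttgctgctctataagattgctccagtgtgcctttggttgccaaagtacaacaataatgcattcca

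Of the 10 genes, 6 had a promoter summit in the optimal list, namely ph-p, E(z), esc, Su(z)12, Sfmbt and pho. Over all protein-coding genes the share was 19.2% (2674 of 13945). By complex, the 6 were 1 of the 5 PRC1 genes, all 3 PRC2 genes and both PhoRC genes among these 10. Of the further genes searched, 3 of 5 for PRC1 and its partners had such a summit. For PRC2 and its partners 1 of 5 had one, and phol, the further PhoRC gene, had none. Of the 10 genes, only E(z), Su(z)12 and Sfmbt have a TSS of the opposite strand within 500 bp. The 4 genes without a promoter summit in the optimal list, ph-d, Pc, Psc and Su(z)2, had their optimal summits outside the promoter. In the pooled list, called on the 3 alignments together and reaching down to background, 9 of the 10 genes had a promoter summit, all but Su(z)2, beside 51.0% of all genes. Counting summits at the promoter, in the gene or within 5 kb, all 10 genes had one in the optimal list. That wide rule called 45.6% of all genes and takes in more sequence for a longer gene. The median length was 8360 bp for these 10 and 2166 bp for all protein-coding genes. No test was made on these counts, since the genes were chosen with earlier results of these data known.

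Cut to its strongest 3844 peaks, replicate 1 placed a promoter summit at 5 of the 10 genes, beside 18.6% of all genes. Replicate 2 placed one at 6 of the 10, beside 19.2% of all genes. Replicate 3 placed one at 6 of the 10, beside 18.8% of all genes. The 6 genes were those of the optimal list in replicates 2 and 3, and replicate 1 lacked pho.

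**Figure D1:**
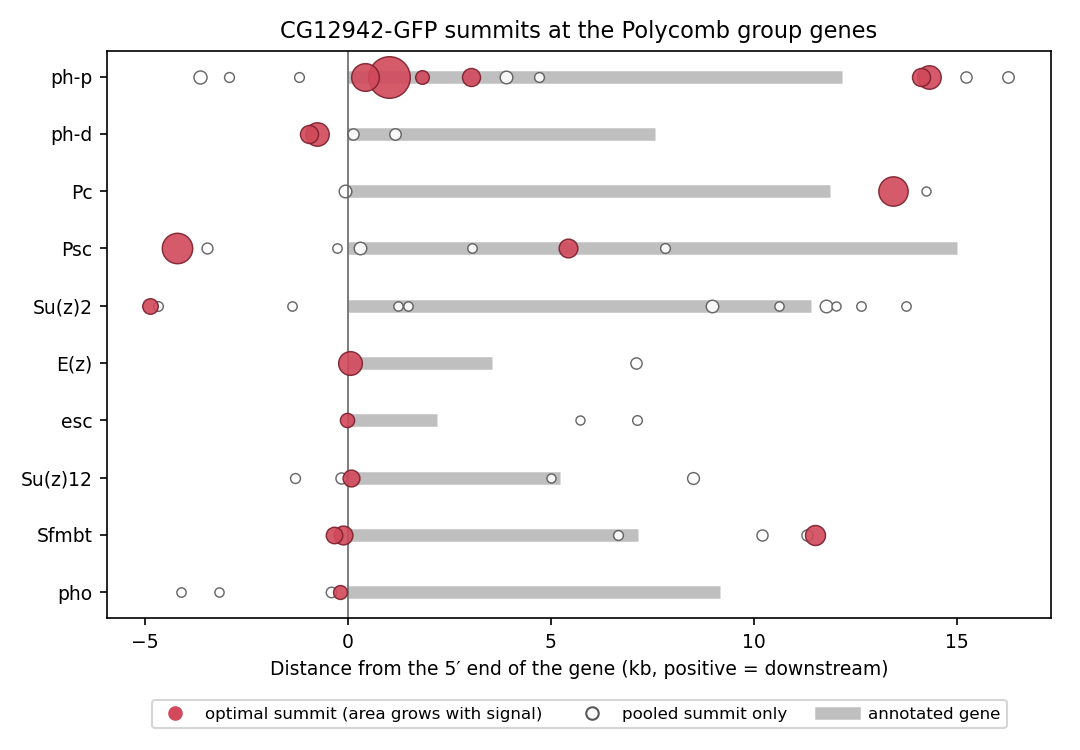
Position of every summit counted for each gene, by distance in kb from the gene's 5′ end along the direction of transcription. Filled circles are optimal summits with an area that grows with the signal, open circles are in the pooled list only, and grey bars are the annotated genes. The 6 genes with a promoter summit have filled circles near 0. However, the largest of ph-p lies 1025 bp downstream, 491 bp upstream of an inner TSS, and that of Sfmbt 11510 bp downstream. Psc has its largest 4195 bp upstream and another 5419 bp downstream. Su(z)2 and Pc have theirs 4870 bp upstream and 13428 bp downstream.

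In all, 17 different optimal summits fell at the promoter, in the body or within 5 kb of these genes, 9 of them promoter summits. The median signal of the 9 was 151.6, and that of all 2008 optimal promoter summits was 133.7. Taking the strongest promoter summit of each gene, the 6 stood at position 9 (ph-p), 186 (E(z)), 552 (Sfmbt), 851 (Su(z)12), 1511 (esc) and 1653 (pho) of those 2008. They therefore spread from near the top of the promoter summits to below most of them. In the replicate lists, the mean percentile of these 6 summits was 90.9, 96.1 and 95.3 in replicates 1, 2 and 3 (mean 94.1 ± 2.81, SD, n = 3). The mean over all optimal promoter summits, not only the strongest of each gene, was 92.6, 93.0 and 92.6 (mean 92.7). The 6 were thus below that mean in replicate 1, and the sets differ in how summits were chosen.

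Among the PRC1 genes, ph-p (polyhomeotic proximal, X:2126210-2138371, minus strand) and ph-d (polyhomeotic distal, X:2115727-2123286, minus strand) are tandem copies that encode SAM domain proteins of the core complex. They lie head to tail, 2923 bp apart. The strongest promoter summit of ph-p, at X:2137346, had a signal of 1104.6 and the optimal rank 13. Its ranks were 14, 11 and 6 in replicates 1, 2 and 3, so it was among the strongest peaks of each list. It lay 491 bp upstream of an inner TSS, in an intron of the longest ph-p transcript, and the matched replicate summits lay at -484 ± 6.08 bp (SD, n = 3).

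Besides this, ph-p had optimal promoter summits at X:2137941 and X:2136534. The former lay 430 bp downstream of the outermost TSS in the 5′ UTR, with a signal of 470.8, the optimal rank 124 and the replicate ranks 194, 106 and 82. The latter lay 88 bp downstream of the innermost TSS, with a signal of 88.4, the optimal rank 3278 and the replicate ranks 3553, 3731 and 4505. It was the weakest optimal summit of all 10 genes, close to the lowest signal of the list, 78.9. With these, ph-p was 1 of 20 protein-coding genes (0.143%) with 3 or more optimal promoter summits. It has 3 annotated TSSs, and a gene with more TSSs has more room for them. The stronger ones lie 491 and 430 bp from a TSS, so with a promoter window of 250 bp only the weakest would remain. The position 9 of ph-p among the promoter summits rests on the 500 bp window too. A further optimal summit lay in an intron, 1274 bp downstream of the nearest ph-p TSS, with a signal of 179.7, the optimal rank 1043 and the replicate ranks 1107, 739 and 1648.

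By the replicate ranks, the promoter summits most like the strongest of ph-p among all optimal promoter summits were the one shared by Chro and Ssl1 (ranks 12, 7 and 5), that of CG1888 (10, 15 and 4) and that of mRpL41 (11, 6 and 8). Their summed absolute differences in rank from ph-p over the 3 replicates were 7, 10 and 10.

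The ph-d TSSs had no optimal summit nearer than 500 bp. The pooled list held 2 weak ones there, with signals of 51.8 and 48.5. The former had the replicate ranks 6491, 13672 and 8419, and the latter 4706 and 4328 in replicates 1 and 2 with no match in replicate 3. In the interval between ph-d and ph-p lay 2 optimal summits, 762 and 961 bp upstream of the ph-d TSS, with signals of 328.2 and 180.5 and the optimal ranks 284 and 1034. The strongest replicate peak within 200 bp was the same for both, with the ranks 422, 335 and 215, so the replicate lists do not separate them. Both also lie within 5 kb of the 3′ end of ph-p and were counted for both genes.

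The upstream regions of both copies were aligned with each other, from 2200 bp upstream to 200 bp downstream of the TSS at X:2136855 in ph-p and of that at X:2123286 in ph-d, which fell on each other. From 50 bp downstream to 380 bp upstream, 97.2% of the aligned bases were identical (412 of 424). This shared block was drawn to end where the stretch around the strongest ph-p summit begins, so that summit lies outside it by choice. The stretch, printed above, is the 256 bp between the nearest blocks of 20 or more identical bases on either side of the summit. Its counterpart in ph-d is 64 bp long, so 62 bases could be aligned, 53 of them identical. The summit base itself had no aligned base in ph-d, and the same held under 3 other settings of the gap costs. No optimal summit of ph-d lay in the counterpart.

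The ph-p summit at X:2137941 had an aligned base in ph-d, X:2124231. That position was 16 bp from the ph-d summit at X:2124247 and lay between both optimal summits of the interval. In the 121 bp window around the ph-p summit, 88 of 116 aligned bases (75.9%) were identical. At this place each copy therefore had optimal summits, with signals of 470.8 in ph-p and of 180.5 and 328.2 upstream of ph-d. How reads were placed at these summits was not tested. No 31-base word within 200 bp of X:2137941, X:2124048 or X:2124247 occurs elsewhere on the 6 chromosome arms. Around the strongest ph-p summit 28 of 371 such words (7.55%) do; their part in its signal was not tested.

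**Figure D2:**
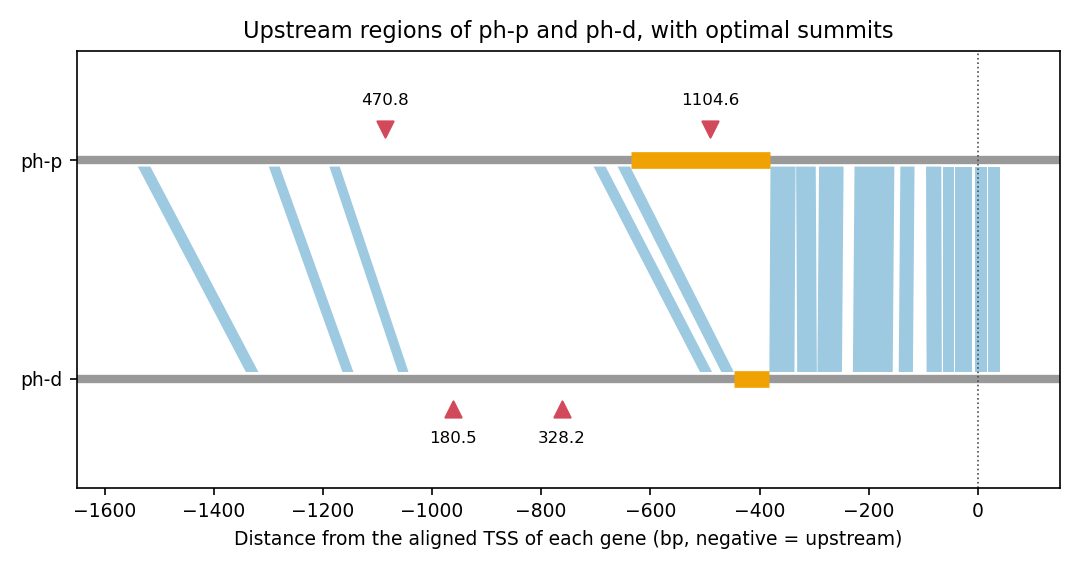
Upstream regions of ph-p (top) and ph-d (bottom) by distance in bp from their aligned TSSs. Blue bands join blocks of 20 or more identical bases, orange marks the stretch of 256 bp in ph-p and its counterpart of 64 bp in ph-d, and triangles mark optimal summits with their signals. The summit with a signal of 1104.6 lies in the orange stretch of ph-p, and the other summits lie further upstream.

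Pc (Polycomb, 3L:21306138-21318020, minus strand) encodes the chromodomain protein with which PRC1 binds methylated histone H3. Its promoter had a summit in the pooled list only, 69 bp upstream of the TSS, with a signal of 70.1 and the replicate ranks 7220, 4281 and 3883. All 3 ranks fell outside the strongest 3844, the last of them narrowly. The optimal summit counted for Pc lay beyond its 3′ end, at 3L:21304592, 13428 bp from its TSS. It had a signal of 533.2, the optimal rank 90 and the replicate ranks 72, 102 and 132. This summit was 66 bp downstream of the TSS of CG11309, the next gene, and 105 bp upstream of that of CG7632. It is thus a promoter summit of those genes by the same rule.

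Psc (Posterior sex combs) and Su(z)2 (Suppressor of zeste 2) encode related ring finger proteins of PRC1 and lie on 2R with 15506 bp between their 5′ ends. That interval also holds the gene CG33798, and it held 2 optimal summits. The stronger, at 2R:12985189 and 4195 bp upstream of Psc, had a signal of 575.2, the optimal rank 72 and the replicate ranks 40, 79 and 153. The other, at 2R:12991631 and 4870 bp upstream of Su(z)2, had a signal of 124.7, the optimal rank 1936 and the replicate ranks 2850, 1263 and 2026. Its nearest TSS was that of CG33798, 2266 bp away. Both were intergenic and over 2 kb from any protein-coding TSS, unlike the summit counted for Pc.

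Within Psc, an intron held an optimal summit 5083 bp downstream of a TSS, with a signal of 196.0, the optimal rank 896 and the replicate ranks 775, 1673 and 728. At the Psc promoter the pooled list held summits at -30 and -261 bp, with signals of 68.7 and 23.9. The former had the replicate ranks 5792, 7313 and 8814, all weaker than rank 3844. Su(z)2 was the 1 gene of the 10 with no promoter summit in either list.

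The PRC2 genes each had 1 optimal summit, at the promoter. E(z) (Enhancer of zeste, 3L:10634575-10638130, minus strand) encodes the methyltransferase of the complex. Its summit lay 47 bp downstream of the TSS, with a signal of 336.5, the optimal rank 268 and the replicate ranks 603, 181 and 226. With ph-p it was 1 of 2 members among the genes with a promoter summit among the 384 strongest optimal peaks, 2.78% of all genes. In genome coordinates the summits of replicates 1, 2 and 3 lay at -79, 1 and 5 bp from the optimal one, so that of replicate 1 was further inside the gene. The TSS of Cnep1r2, on the other strand, is 16 bp away, so the summit lay 63 bp upstream of that gene too and cannot be ascribed to either.

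Su(z)12 (3L:19918242-19923462, minus strand) encodes a zinc finger subunit needed for PRC2 activity. Its summit lay 83 bp downstream of the TSS, with a signal of 151.6, the optimal rank 1418 and the replicate ranks 1906, 2422 and 918. The TSS of Pfdn6 on the other strand is 209 bp away, and the summit lay 292 bp upstream of it. In the pooled list a weaker summit, with a signal of 47.1, lay 50 bp upstream of Pfdn6.

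esc (extra sexcombs, 2L:11827204-11829405, minus strand) encodes the WD40 repeat subunit that binds methylated histone H3. Its summit lay 12 bp upstream of the TSS, with a signal of 98.8, the optimal rank 2746 and the replicate ranks 3409, 2192 and 3151. The gene lies in an intron of Pde1c and has no TSS of the other strand within 500 bp.

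The PhoRC genes are Sfmbt, whose product has MBT domains that bind methylated histones, and pho (pleiohomeotic), whose product is the zinc finger protein that binds DNA. Sfmbt (2L:13169649-13176785, minus strand) had optimal promoter summits 128 and 336 bp upstream of its TSS, with signals of 199.1 and 144.2. The stronger had the optimal rank 864 and the replicate ranks 1155, 620 and 897. In replicates 1 and 3 the same peak matched both summits. CG43925 and CG5439 start on the other strand 41 and 365 bp from Sfmbt, and the weaker summit, with the optimal rank 1528, was nearest to CG5439, 29 bp upstream of it. A further optimal summit lay beyond the 3′ end of Sfmbt, with a signal of 228.9, the optimal rank 657 and the replicate ranks 828, 1121 and 355. It lay 257 bp upstream of DnaJ-H and 289 bp upstream of Sirt1, and is a promoter summit of those genes.

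pho (4:1172469-1181628, minus strand) had a summit 192 bp upstream of its TSS, with a signal of 92.7 and the optimal rank 3044. Its replicate ranks were 9380, 1642 and 2720, the widest spread of the 6 genes. Replicate 1 thus placed it far below the strongest 3844. On chromosome 4, pho held position 13 of 18 optimal summits, and 12 of the 80 protein-coding genes there had a promoter summit.

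**Figure D3:**
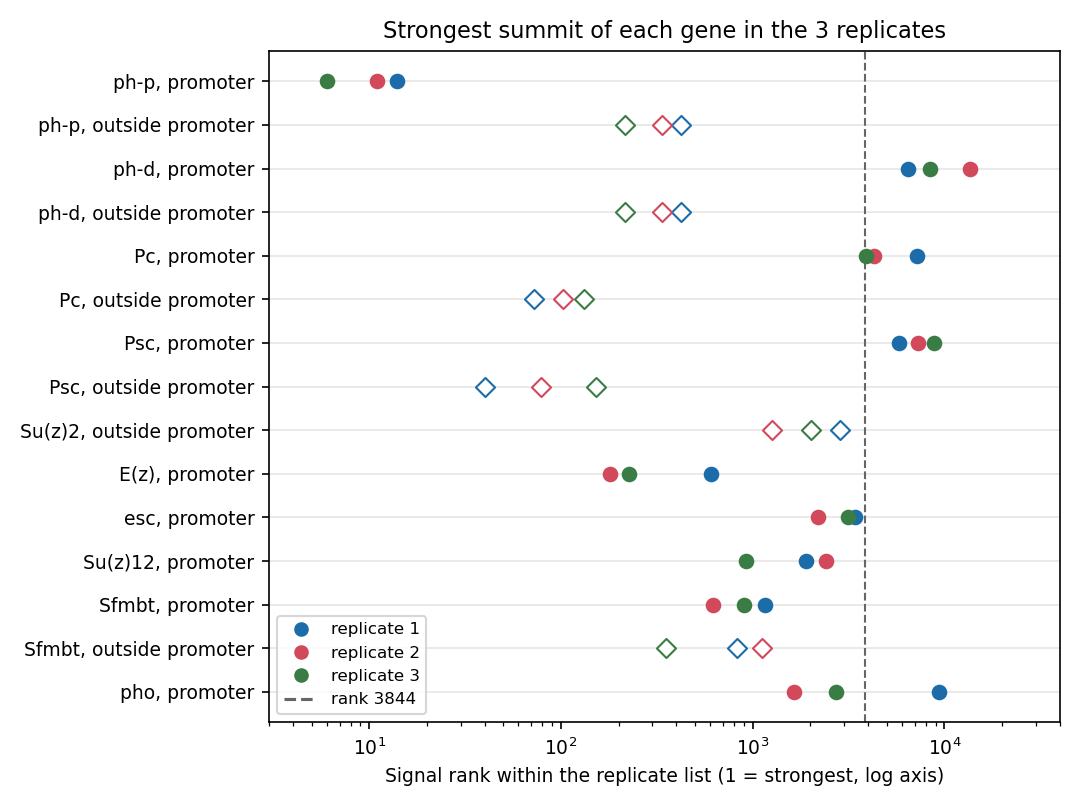
Signal rank, on a log axis, of the strongest promoter summit of each gene (filled circles) and of its strongest optimal summit outside the promoter (open diamonds) in replicates 1, 2 and 3. The dashed line marks rank 3844, the size of the optimal list. The promoters of ph-d, Pc and Psc lie to the right of it in all replicates, pho does so in replicate 1 at rank 9380, and ph-p stands at ranks 6 to 14.

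The order of the 6 promoters held in part against the spread of the replicates. The ranks of ph-p (6 to 14), E(z) (181 to 603) and Sfmbt (620 to 1155) did not overlap. Those of Sfmbt and Su(z)12 (918 to 2422), of Su(z)12 and esc (2192 to 3409), and of esc and pho (1642 to 9380) did. Just outside the optimal list, with signals of 78.2 and under, were a summit in an intron of D2hgdh upstream of ph-p (78.2), one in an intron of ph-p (70.8), one downstream of Su(z)2 (70.3) and the promoter summits of Pc (70.1) and Psc (68.7). Just inside it were those of ph-p at its innermost TSS (88.4), pho (92.7) and esc (98.8). The promoters of Pc and Psc were thus weaker than the optimal list and present in the pooled one, which reaches down to background.

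E(z), Su(z)12 and Sfmbt were the 3 of 10 genes with a TSS of the opposite strand within 500 bp, an arrangement of 27.8% of all genes. Of all such genes 40.2% had an optimal promoter summit, and of the rest 11.1%. All 3 of these members had one, and so did 3 of the other 7, ph-p, esc and pho. Of the 17 protein-coding genes next to the members, 6 had an optimal promoter summit, beside 19.2% of all genes. Of these, 5 shared it with the search area of the member. Those 5 were CG11309, Cnep1r2, Pfdn6, Sirt1 and CG5439, and the other was csw, next to ph-d. Cnep1r2, Pfdn6 and CG5439 are opposite-strand partners of members with a promoter summit, so this count in part repeats that of the members. Of the 19 pairs of a member and an optimal summit, 13 had the member's own TSS as the nearest.

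The other genes of the Polycomb system were searched in the same way, and 25 of 26 names matched the annotation. Of the 25, 10 had an optimal promoter summit and 23 had a pooled one, beside 19.2% and 51.0% of all genes. A TSS of the opposite strand lies within 500 bp in 10 of the 25. Of those, 4 (40.0%) had an optimal promoter summit, beside 40.2% of all such genes. The other list genes with one, l(3)73Ah, RYBP, Kdm2, corto, Trl and psq, have no such TSS. Of all genes without such a TSS, 11.1% had an optimal promoter summit. Among PRC1 partners, the genes with a summit were the ring finger gene l(3)73Ah (signal 109.8), RYBP (signal 106.0) and the demethylase gene Kdm2 (signal 93.3). Among PRC2 partners it was Jarid2 (optimal rank 2177). Of the genes for proteins that bind Polycomb response elements, 4 of 8 had one: Trl, which encodes GAGA factor (signal 225.7), psq (signal 137.5), cg (signal 115.6) and lolal (signal 120.5). The remaining ones were mxc (signal 95.8) and corto (signal 87.6), and neither phol, a relative of pho, nor Asx had one. Of the 10 genes with an optimal promoter summit, Trl had the highest signal, with the replicate ranks 1895, 616 and 369. The ranks of mxc were the most uneven, 4258, 20761 and 1438. Trl and psq were the 2 of the 25 that remained among the 1922 strongest optimal peaks, a cut that called 11.4% of all genes. Taking in place of the optimal list the top peaks that 2 replicates shared, the count was 4 without replicate 1, 4 without replicate 2 and 7 without replicate 3, while these smaller sets called 15.8%, 14.5% and 14.7% of all genes.

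The products of the trithorax and Brahma genes act against Polycomb silencing or remodel nucleosomes. Of these 16 genes, 6 had an optimal promoter summit and 14 a pooled one, beside 19.2% and 51.0% of all genes. A TSS of the opposite strand lies within 500 bp in 11 of the 16. Of those 11, 5 (45.5%) had an optimal promoter summit, beside 40.2% of all such genes. The remaining list gene with one, kis, has no such TSS. Of all genes without such a TSS, 11.1% had an optimal promoter summit. With their signals, the 6 were brm, the ATPase of the Brahma complex (508.9), its subunit genes mor (148.0), Snr1 (92.1) and Bap60 (175.6), and kis (100.4) and fs(1)h (142.2). The summit of brm had the replicate ranks 137, 96 and 94. Of the lists searched here, the brm signal was lower than that of the strongest ph-p summit and higher than those of the other 5 members with a promoter summit.

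**Figure D4:**
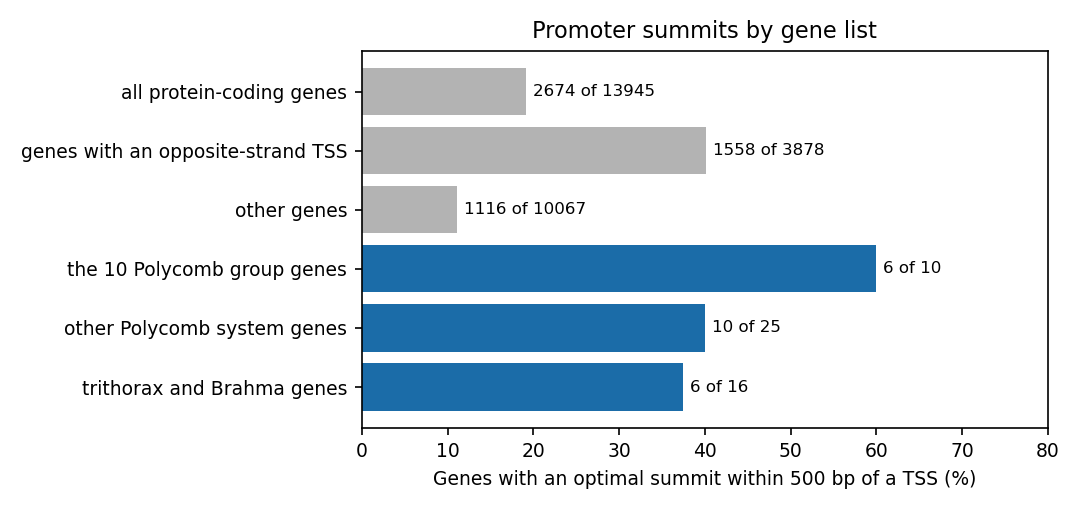
Percent of genes that have an optimal promoter summit, for all protein-coding genes, genes with and without an opposite-strand TSS within 500 bp (grey) and the searched lists (blue), with the counts beside the bars. The shares are 19.2%, 40.2% and 11.1% in grey and 6 of 10, 10 of 25 and 6 of 16 in blue.

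Short motifs were looked for, on either strand, up to 50 bp from each of the 9 promoter summits of the members. CGATA, the core that the insulator protein BEAF-32 binds, was present at 3 of 9, in ph-p at X:2137941, in Sfmbt and in pho, beside 23.4% of all optimal promoter summits and 18.7% of promoters without a summit. TATCGATA, the DNA replication related element (DRE), which contains CGATA, was present at Sfmbt only, beside 3.39% and 1.97%. GGTCACAC, the core of the promoter element motif 1, was present at esc only, beside 1.69% and 1.17%. The word AGTGTTG, the 7-base word most enriched at the promoter summits of all other genes over windows 400 bp away, was present at E(z) and at the Sfmbt summit next to CG5439, beside 6.57% and 1.40%. In E(z) it stands on the opposite strand as the capitals CAACACT printed above, at -47 to -41 bp from the summit. The esc sequence holds it as well, but at -58 to -52 bp, outside the window searched.

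The letters GAGAG, which GAGA factor binds, were at none of the 9, beside 8.17% of all optimal promoter summits, and GCCAT, the core of the Pho site, was at none, beside 14.9%. The E-box CAGCTG (5.13%), a further E-box with the letters CACGTG (1.29%) and the TATA box with the letters TATAAA (21.3%) were at none of the 9 either. The next most enriched word, ACTATCG, was at none of the 9, beside 5.53%, and the same held for the one after it, which has the letters CTATCGA and overlaps it, beside 5.88%. The strongest ph-p summit had none of the searched letters within 50 bp. The mean GC content of these windows was 35.9 ± 12.4% (SD, n = 9 summits) at the members, 34.7% at all optimal promoter summits and 38.0% at promoters without a summit.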

How the data were processed

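CG12942-GFP ChIP-seq peak lists on dm6 from 3 replicates of whole embryos were used: 1 list per replicate, 1 pooled and 1 optimal list. Per the submitters' file listings, a control alignment was used to call each replicate list, the pooled list came from all 3 alignments, and IDR gave the optimal list. Aligner and peak caller: not given in the sources used here. Peaks carry a signal value deposited by the authors, whose scale differs between lists, so it ranks peaks only within a list. The −log10 q value deposited by the authors is tied in many peaks and served only for an alternative ranking. The p value column held no values. All 3844 optimal peaks were the 3844 strongest of the 27271 pooled ones.

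Summits were set against protein-coding TSSs of Ensembl release 115 on 6 arms. A replicate peak matched when it was the strongest within 200 bp. Sequences came from the RefSeq Release 6 genome. The upstream regions of ph-p and ph-d were aligned with Biopython 1.88 (match 1, mismatch -1, gap opening -4, gap extension -0.25, end gaps free). The calling functions were tested on simulated data. The genes, the lists and the motifs were chosen with earlier results of these data known. All members were named, with their neighbours, opposite-strand partners, list genes with an optimal promoter summit and the 3 promoters most like ph-p. With 1 group no test between groups was possible, and counts are set beside the share of all genes. Alternatives changed the promoter window, list, flank, match distance, motif window, TSS set and replicates. The lists on dm3 were not used. Python 3.11.15, pandas 2.3.3 and numpy 2.4.6 were used.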

Additional observations from a re-analysis of the deposited data

How the results depend on the processing

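Of 83 alternative values, 75 kept within 1.5 times the count or within 1 SD, 8 moved and 0 changed direction. The last was fixed in advance, since counts, percentiles and distances as sizes have no direction to change. A mean percentile over 3 replicates also cannot move by 1 SD when 1 replicate is left out. A fall from 6 to 4 counts as kept, so the 75 are no measure of robustness. The 6 members with a promoter summit became 4 in the 1922 strongest optimal peaks (without esc and pho), beside 11.4% of all genes. At 1000 bp they became 7 (with ph-d), beside 21.8% of all genes. Leaving out replicate 2 or 3 gave 5, without pho, beside 14.5% and 14.7% of all genes. With summits at the promoter, in the gene or within 5 kb, the 10 members became 9 at a flank of 2 kb, without Su(z)2. They became 7 in the 1922 strongest optimal peaks, and 9, without pho, when replicate 2 or 3 was left out. The share of all genes under these wide alternatives is not given. The 10 other Polycomb genes became 2 in the 1922 strongest optimal peaks, beside the same 11.4%. Leaving out replicate 1, 2 or 3 gave 4, 4 and 7, beside 15.8%, 14.5% and 14.7% of all genes. The 6 member promoter summits with any of the searched motifs became 1 within 25 bp and 7 within 100 bp. A narrower window holds fewer words at any summit. The share of all optimal promoter summits with any of these motifs is not given beside these counts. The median distance of the 6 summits from a TSS, 105.5 bp, became 172 bp with the summits of replicate 3. Ranking by the q value, added after the data were seen, put ph-p, E(z) and Sfmbt alike at 95.0, since those values are tied. Ranking by p value was not run, as that column holds no values. The causes were not tested. No paired analysis was possible because there is 1 group. Depth is unknown, and the signal has no error of its own within a list.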
